A study of Mus musculus with 4 samples.

Results

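The genes described here code for 9 proteins of the red cell membrane skeleton: Sptb, Ank1, Slc4a1, Epb41, Epb42, Add1, Add2, Add3 and Mpp1. They were chosen by gene symbol, with no measured value in the rule, and each was found as 1 of the 25206 probe sets of the array, which carry Entrez gene numbers as names. RNA was measured on 4 Affymetrix arrays from E14.5 mouse fetal liver erythroblasts (immature red cells), selected on beads that carry an antibody against Ter119, a surface antigen of the red cell lineage. The arrays held total input RNA (1 array), RNA precipitated with control rabbit IgG (1 array) and RNA precipitated with an antibody against Cpeb4 (2 biological replicates, called IP). No genotype, treatment or mouse strain was given in the labels, and all 4 preparations share stage, tissue and Ter119 selection; whether a control and an IP replicate came from the same cells was not given. The design asks for the mRNAs that came down with Cpeb4, so each skeleton mRNA was set against the IgG precipitate, which stands for RNA that binds without the antibody's specificity, and against the input.

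The red cell skeleton is a mesh of spectrin tetramers lying under the plasma membrane. Ankyrin ties the mesh to the anion exchanger band 3, with protein 4.2 at that link, while protein 4.1 and the adducins join spectrin to short actin filaments and to the membrane at the junctional complex. The mesh is built during terminal erythroid differentiation, and inherited defects of its parts cause spherocytosis or elliptocytosis. Cpeb4 belongs to a family of proteins that bind cytoplasmic polyadenylation elements in the 3′ ends of mRNAs and alter their translation.

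Values are deposited log2 expression values; a difference of 1 is 2-fold. The IgG array held a narrower range than the others: its SD over probe sets was 1.74, against 2.05 to 2.13 on the other arrays. The 6 erythroblast markers used, Alas2, Klf1, Gata1, Epor, Tfrc and Hbb-b1, were above the array median on every array. So were the 8 megakaryocyte markers, so this criterion alone does not set erythroblasts apart. Of the marker lists used, the erythroblast list had the highest mean level on every array, as given below. Markers of other blood cells had higher means in the IP than in input. All 8 megakaryocyte markers were higher, 7 of them past the test used below. Their mean log2 level was 6.77 in input, 7.81 in IgG, and 8.89 and 9.001 in the IP replicates. For 8 granulocyte markers the mean was 6.05, 6.78, 7.87 and 7.89 in the same order, for 8 macrophage markers 4.17, 4.74, 5.05 and 5.16, and for 7 hepatocyte markers 4.14, 4.84, 5.61 and 5.70. Not every marker followed its mean. In IP minus input the macrophage marker C1qa was at -0.01 and the granulocyte marker Elane at 0.0. Against IgG, 3 of 6 tested macrophage markers were higher in the IP, and C1qa fell (IP minus IgG -0.67). Of 5 endothelial markers, 4 were below the array median on every array. The erythroblast markers averaged 10.65, 9.97, 10.02 and 10.03. Endothelial markers averaged 3.92, 4.18, 4.30 and 4.29. The parts of cell make-up and of precipitation in these marker differences cannot be told apart here. Their part in the values below was not tested.

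Of the skeleton mRNAs, only Add3 stood at least 2-fold above IgG in the IP, and Epb42 and Mpp1 were at least 2-fold lower in the IP than in input. Against IgG, 2 of the 9 rose (Add2 and Add3), 2 fell (Ank1 and Epb42) and 5 did not pass. Against input, 1 rose (Add3), 3 fell (Epb42, Add1 and Mpp1) and 5 did not pass. Calls are at an adjusted p under 0.05 in limma, with Benjamini-Hochberg adjustment over 14899 tested probe sets; all 9 members were tested. The spread was estimated from the 2 IP arrays, so the single IgG and input arrays are taken to have the same spread.

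These counts are to be read against all tested probe sets, of which 35.4% rose and 21.9% fell against IgG, and 10.2% rose and 15.6% fell against input. The upward share of all calls against IgG was 61.8%, or 50.8% after the arrays were quantile normalized again. The share of the 9 members called in either direction was 44.4% in each comparison, against 57.3% of all tested probe sets for IgG and 25.8% for input. By size, in both IP replicates, 1 member was at least 2-fold above IgG, where 18.2% of tested probe sets were, and 0 were at least 2-fold below, where 6.6% were. Against input 0 members were at least 2-fold higher (4.11% of tested probe sets) and 2 were at least 2-fold lower (5.22%).

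**Figure D1:**
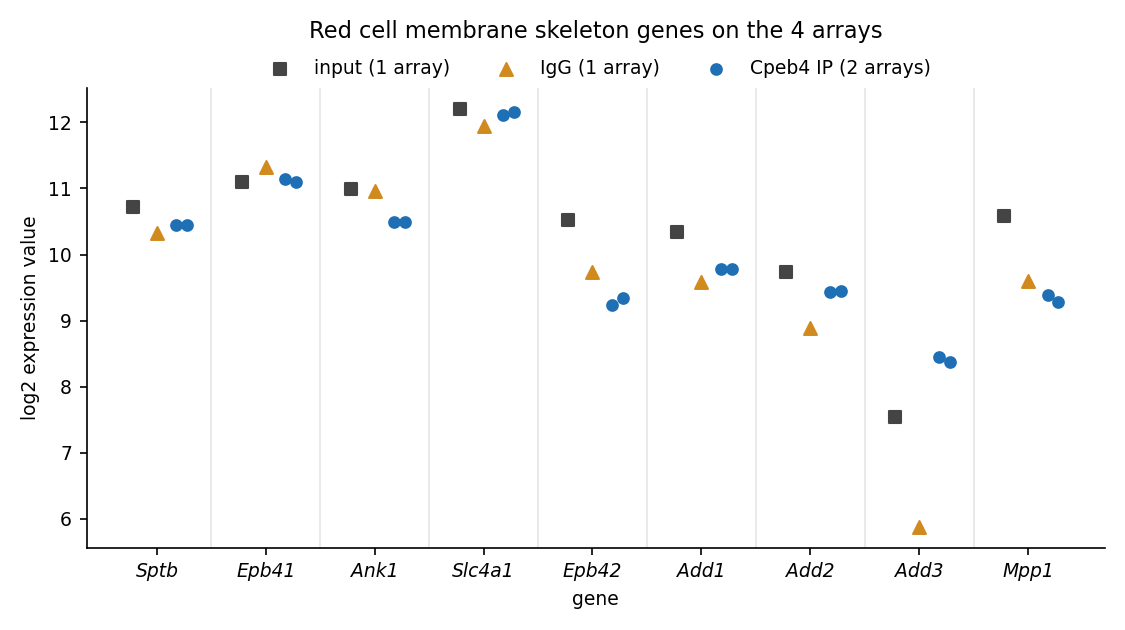
Deposited log2 expression values (vertical axis) of the 9 skeleton genes on each array: input (square), IgG (triangle) and the 2 Cpeb4 IP replicates (circles). The IP replicates lie close together for every gene; Add3 is the one gene whose IP values are above both controls, and Ank1, Epb42 and Mpp1 have IP values below both.

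The share of calls differed with the level of the probe sets. Apart from Add3, each member had values above the 97th percentile of probe sets on all 4 arrays, and these 8 lay in the top 10% of tested probe sets by mean level. In that top 10%, 1490 probe sets, 61.1% rose and 8.05% fell against IgG, with a median difference of 0.63. Of the 8 members in it 1 rose (Add2) and 2 fell, and the median of all 9 was 0.12, against 0.07 over all tested probe sets. After quantile normalization again the members' median turned to -0.17, against 0.02 for the same probe sets. Against input, 15.6% of the top 10% rose and 23.6% fell, with a median of -0.07; the median of the 9 members was -0.29 and that of all tested probe sets -0.01. This upper range was looked at after the members' values were known, and the members were not tested against it.

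Spectrin and protein 4.1, which form the mesh and lock it to actin, stayed near both controls. Sptb, the beta chain of erythroid spectrin, had 10.72 in input, 10.33 in IgG, and 10.45 in both IP replicates. Its IP values thus lay between the controls, 0.12 ± 0.12 above IgG (difference ± SE, limma adjusted p = 0.458) and 0.28 on the log2 scale under input (IP minus input -0.28 ± 0.12, limma adjusted p = 0.186). Epb41, protein 4.1, had 11.10 in input, 11.33 in IgG, and 11.15 and 11.10 in the IP. Input lay between the IP replicates, and IgG above all of them; IP minus IgG was -0.21 ± 0.12 (limma adjusted p = 0.218) and IP minus input 0.02 ± 0.12. Epb41 was the one member with a higher value in IgG than in input.

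The ankyrin complex holds the mesh to the membrane, and its parts differed. Slc4a1, the anion exchanger known as band 3, had 12.20 in input, 11.94 in IgG, and 12.12 and 12.16 in the IP. IP minus IgG was 0.20 ± 0.12 (limma adjusted p = 0.231) and IP minus input -0.06 ± 0.12 (limma adjusted p = 0.844). After quantile normalization again IP minus IgG was 0.28 and passed (limma adjusted p = 0.0417). Ank1, the ankyrin that links spectrin to band 3, had 10.99 in input, 10.96 in IgG and 10.50 in both IP replicates. The controls differed little (IgG minus input -0.03) and both IP arrays were lower. Ank1 fell by 0.46 against IgG (SE 0.12, limma adjusted p = 0.0324), whereas IP minus input, at -0.49, did not pass (limma adjusted p = 0.0508). That difference lay close to the threshold: it passed with the 60th percentile filter and after quantile normalization again (-0.46) (limma adjusted p = 0.028 and 0.0429), and not without the filter (0.0823). It also passed with ordinary eBayes (limma adjusted p = 0.0169), but tied IP values make the spread used by that method too small, so this adds no support. The IP values of Ank1 were tied to the last digit, which the probe summary can produce, so they show no spread of their own.

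Epb42, protein 4.2, which binds band 3 and ankyrin, was the member called lower in the IP against both controls, with Ank1 just short of that. It had 10.52 in input, 9.73 in IgG, and 9.23 and 9.34 in the IP, so that all precipitates were below input and the IP lowest. It fell by 1.23 against input (SE 0.13, limma adjusted p = 0.0104), a 2.35-fold lower value, and by 0.44 against IgG (SE 0.13, limma adjusted p = 0.0434). The second call was lost without the filter on low values (limma adjusted p = 0.0542) and with ordinary eBayes (limma adjusted p = 0.103). Falling against both controls was seen in 1 of 9 members and in 2.38% of tested probe sets; rising over both was seen in 1 of 9 (Add3) and in 7.35%. The IP arrays are shared by both comparisons.

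**Figure D2:**
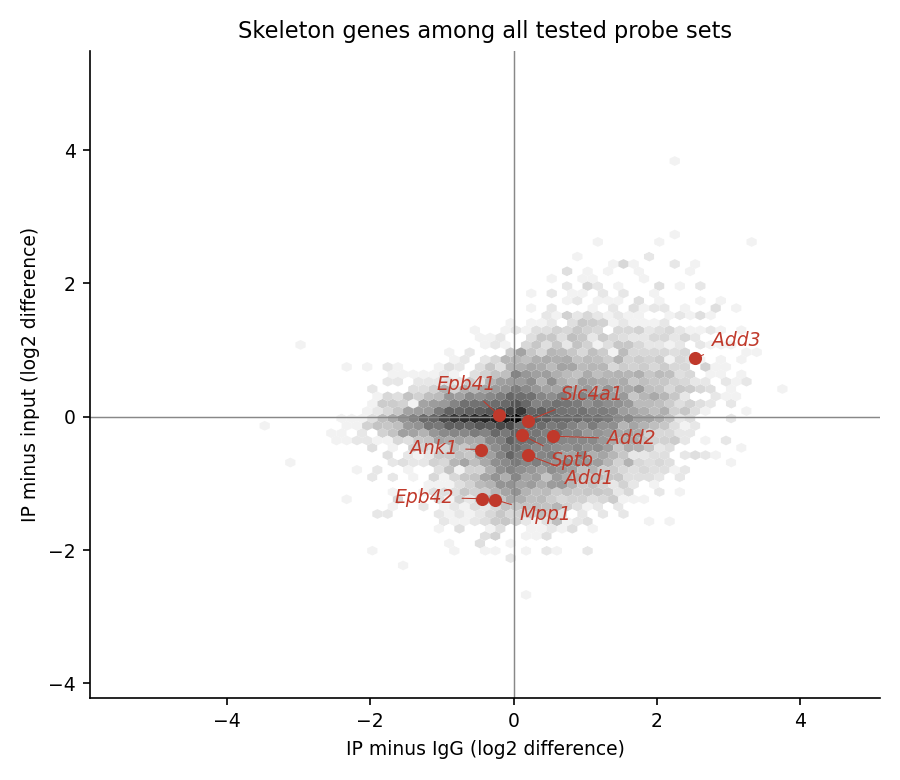
IP minus IgG (horizontal) against IP minus input (vertical), as log2 differences of the mean of 2 IP arrays from 1 control array; grey hexagons show the number of tested probe sets on a log scale, and red points the 9 skeleton genes. Add3 lies at 2.53 and 0.88, Epb42 and Mpp1 lie lowest at -1.23 and -1.24 against input, and the other members cluster near the centre; both axes share the IP arrays.

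The 3 adducins, which cap the actin filaments and recruit spectrin to them, did not move together. In red cells adducin is known chiefly as a complex of alpha (Add1) and beta (Add2) subunits, while gamma adducin (Add3) is expressed more widely. Add3 had 7.53 in input, 5.88 in IgG, and 8.45 and 8.37 in the IP, both IP values being above each single control array. It rose by 2.53 over IgG (SE 0.12, 5.79-fold, limma adjusted p = 0.00152), and over input the rise was 0.88 (SE 0.12, 1.83-fold, limma adjusted p = 0.0163), in both replicates. Its difference from IgG was at percentile 98.4 of tested probe sets and that from input at percentile 94.0. With ordinary eBayes, the call against input was lost (limma adjusted p = 0.063).

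The large difference of Add3 from IgG went with a low IgG value: it was 3.15-fold lower in IgG than in input, at percentile 9.34 of that difference. The position of Add3 among all probe sets of an array was percentile 86.4 in input, 77.0 in IgG, and 93.8 and 93.3 in the IP, so its order across the arrays was the same by rank as by value. After the arrays were quantile normalized again it was 2.01 above IgG and 1.03 above input.

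Add1, alpha adducin, had 10.35 in input, 9.58 in IgG and 9.77 in both IP replicates, again tied. It lay between the controls, fell by 0.57 against input (SE 0.12, limma adjusted p = 0.0358), and was 0.20 above IgG (limma adjusted p = 0.233). The call against input was lost without the filter (limma adjusted p = 0.0548). Add2, beta adducin, had 9.73 in input, 8.89 in IgG, and 9.43 and 9.45 in the IP. It too lay between the controls: it rose by 0.55 over IgG (SE 0.12, 1.46-fold, limma adjusted p = 0.02) and was at -0.29 from input (limma adjusted p = 0.166). After quantile normalization again, the difference of Add2 from IgG was 0.03 (limma adjusted p = 0.602), and that of Add1 was -0.18.

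Mpp1, the palmitoylated protein p55 that binds protein 4.1 and glycophorin C, had the lowest value against input. It had 10.58 in input, 9.60 in IgG, and 9.39 and 9.29 in the IP. All precipitates were below input, the IP most: it fell by 1.24 against input (SE 0.13, 2.37-fold lower, limma adjusted p = 0.0103) and was at -0.26 from IgG (limma adjusted p = 0.147). Against input, Epb42 and Mpp1 were at percentiles 3.60 and 3.42 of tested probe sets. Both calls against input were lost with ordinary eBayes (limma adjusted p = 0.0601 and 0.0561). After quantile normalization again, Mpp1 was at -0.67 from IgG and passed (limma adjusted p = 0.0212).

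The controls themselves differed for most members. Without an antibody against Cpeb4, 8 of the 9 members were lower in the IgG precipitate than in input, by a median of 0.77 over the 9 (IgG minus input -0.77), where 53.8% of all tested probe sets and 84.9% of the top 10% by level were lower. With the arrays quantile normalized again, 7 of the 9 were lower, and the median was -0.35. These differences, IgG minus input, ran from -0.03 for Ank1 through -0.26 for Slc4a1, -0.39 for Sptb, -0.77 for Add1, -0.79 for Epb42, -0.84 for Add2 and -0.98 for Mpp1 to -1.66 for Add3. They are between 2 single arrays and have no test. By size, 1 member (Add3) was at least 2-fold lower in IgG than in input, where 23.2% of tested probe sets were, and 0 were at least 2-fold higher, where 8.23% were. Add3 was at -0.99 after quantile normalization again, and then 0 members were at least 2-fold lower. For Epb42, Mpp1 and Add1 the IgG precipitate was below input as well, by 1.73-, 1.97- and 1.70-fold as deposited and by 1.33-, 1.49- and 1.27-fold after quantile normalization again. In 7 of the 9 members input had the highest value of the 3 groups, as it did in 34.3% of tested probe sets. That share was not computed for the top 10% by level, which holds 8 of the members, so the 2 figures are not matched for level.

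**Figure D3:**
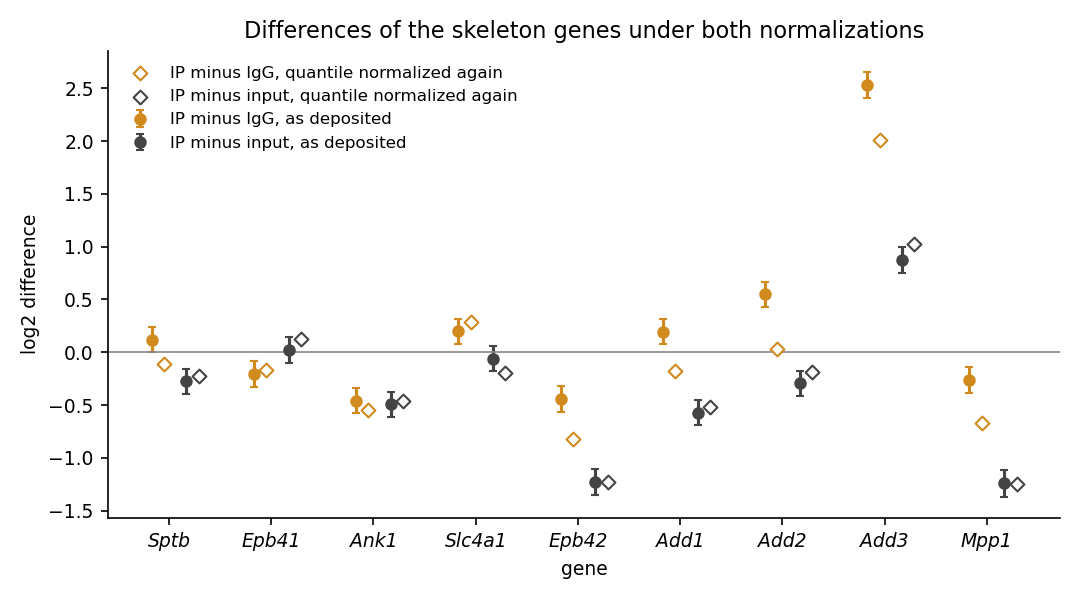
Log2 differences of the 9 skeleton genes, IP minus IgG (orange) and IP minus input (grey): filled circles with bars are deposited values ± the limma SE, open diamonds the values after quantile normalization of the 4 arrays again. Values against IgG become lower for every member except Slc4a1 and Epb41, and those of Add1 and Sptb change sign; values against input keep their sign for all 9.

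Other genes of the skeleton and its junctional complex went in both directions. Of 8 described, 3 rose and 3 fell against IgG, and 2 rose and 2 fell against input, with medians of 0.02 and -0.25. The first of these medians turned to -0.24 with the arrays quantile normalized again. Over all tested probe sets 35.4% rose and 21.9% fell against IgG, and 10.2% rose and 15.6% fell against input. Tmod3, a widely expressed tropomodulin that caps actin, had 7.19 in input, 6.20 in IgG, and 7.91 and 8.06 in the IP. It rose by 1.78 over IgG and 0.79 over input (limma adjusted p = 0.00189 and 0.0234). Tmod1, the tropomodulin typical of red cells, had 9.85 in input, 9.15 in IgG, and 9.19 and 8.84 in the IP, and fell against input (IP minus input -0.835, limma adjusted p = 0.0462). Its difference of -0.13 from IgG did not pass.

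Tpm4, a tropomyosin of non-muscle cells, rose by 1.34 over IgG and 1.48 over input (limma adjusted p = 0.00463 and 0.0112), from 6.94 in input and 7.09 in IgG to 8.56 and 8.30 in the IP. Tpm1, which lies along the actin filaments of the skeleton, fell by 0.63 against IgG (limma adjusted p = 0.0139) and was at -0.29 from input. Dmtn, dematin, which bundles actin at the junctional complex, fell by 0.53 against IgG and by 0.77 against input (limma adjusted p = 0.0216 and 0.0194).

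Of 11 transmembrane proteins tied to the skeleton or carried beside it, 5 rose and 1 fell against IgG, and 1 rose and 2 fell against input. Their medians were 0.35 against IgG and -0.37 against input. Among all tested probe sets 35.4% rose and 21.9% fell against IgG, and 10.2% rose and 15.6% fell against input. In the top 10% by level, 61.1% rose against IgG, with medians of 0.63 against IgG and -0.07 against input. Xk, the carrier of the Kx antigen, rose over both, by 1.87 and 0.97 (limma adjusted p = 0.00163 and 0.0131). Bcam, the Lutheran adhesion protein, was at 0.13 from input (limma adjusted p = 0.702). Rhd, of the Rh complex, and Aqp1, the water channel, fell by 1.16 and 1.05 against input but rose by 0.63 and 0.90 over IgG, being 1.78 and 1.96 lower on the log2 scale in IgG than in input (IgG minus input -1.78 and -1.96). Icam4, an adhesion molecule of erythroblasts, rose by 0.94 over IgG, or 0.46 after quantile normalization again. It too was lower in IgG than in input (IgG minus input -1.51), and its IP minus input of -0.57 did not pass (limma adjusted p = 0.0698). Kel, the Kell protein partnered with Xk, fell by 0.71 against IgG (limma adjusted p = 0.01), and Slc2a1, a glucose transporter, was at -0.05.

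Paralogs of the members were listed as genes used mainly outside red cells, though Tgm2 was high in these cells (9.20 in input, percentile 96.5). Of the 23 listed, 16 reached the level needed for testing. Of these, 4 rose and 2 fell against IgG, and 3 rose and 3 fell against input, with medians of 0.23 and 0.05. The shares of all tested probe sets were 35.4% and 21.9% against IgG, and 10.2% and 15.6% against input. Mpp6, a membrane palmitoylated protein related to Mpp1, had 7.74 in input, 5.85 in IgG, and 9.15 and 9.01 in the IP. It rose by 3.23 over IgG and 1.34 over input (limma adjusted p = 0.00152 and 0.0102), as Add3 did in both comparisons. Mpp5 rose by 1.35 over IgG (limma adjusted p = 0.00308), but its IP minus input of 0.30 did not pass (limma adjusted p = 0.202). It was lower in IgG than in input (IgG minus input -1.05). Sptbn1, the beta spectrin of other cells, rose by 0.91 over IgG and 1.26 over input (limma adjusted p = 0.00996 and 0.0129), from 5.57 in input. Tgm2, a transglutaminase in the family of protein 4.2, fell by 1.43 against input (limma adjusted p = 0.00911), and Epb41l1, a protein 4.1 relative, by 1.26 (IP minus input -1.26, limma adjusted p = 0.011). Tgm1 and Epb41l3 fell by 0.64 and 0.51 against IgG. With the arrays quantile normalized again, IP minus IgG was -1.02 for Tgm1 and -0.16 for Epb41l3. Epb41l3 was weak, below the array median on every array, with 3.82 in input, 4.39 in IgG, and 3.97 and 3.79 in the IP.

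Members and their paralogs can be set side by side by family, as IP minus input. The value was -0.28 for Sptb and 1.26 for Sptbn1, -0.49 for Ank1 and 1.01 for Ank3, and -1.24 for Mpp1 and 1.34 for Mpp6. Among the adducins, all of them members, it was -0.57 for Add1, -0.29 for Add2 and 0.88 for Add3. The tropomodulins, neither of them a member, had -0.835 for Tmod1 and 0.79 for Tmod3. Ank3 was weak: it had 3.76 in input, below the array median of 4.13, 4.57 in IgG, and 4.62 and 4.93 in the IP. Its difference of 0.20 from IgG did not pass (limma adjusted p = 0.397). In some other cases the paralog lay near the member or below it. These values were -0.06 for Slc4a1 and -0.04 for Slc4a2, -1.23 for Epb42 and -1.43 for Tgm2, 0.02 for Epb41 and -1.26 for Epb41l1. Further tested paralogs lay above the member: -0.96 for Mpp2, -0.28 for Mpp7, 0.30 for Mpp5, 0.25 for Slc4a7 and 0.03 for Tgm1. Sptan1 (0.68) and Epb41l2 (0.26) did so too, while Epb41l5 had -0.36. These pairs were set together after the values were seen, and differences between paralogs were not tested. The mean levels of the megakaryocyte, granulocyte, macrophage and hepatocyte markers were higher in the IP than in input as well, as given above, though not for every marker. Their part in these values was not tested.

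For the members with the highest and lowest difference from IgG, the genes with the most similar values over the 4 arrays were found by the root mean square distance of values centred on each gene's own mean, among 14243 others. Closest to Add3 were Arfgef1 (distance 0.02), Rab18 (0.05) and Sp4 (0.06). Arfgef1, an exchange factor for ARF GTPases, had 7.996 in input, 6.38 in IgG, and 8.92 and 8.83 in the IP. Closest to Ank1 were Ep300, a histone acetyltransferase, Shld1 and Hace1, a ubiquitin ligase, each at a distance of 0.02. With 4 arrays such likeness is a description only.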

How the data were processed

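The authors deposited 1 log2 value for each probe set on each array. The submitters' processing notes list RMA and affy; versions, settings, probe definition and genome build were not given in the sources used here. Probe set names are Entrez gene numbers, and 23740 of 25206 matched a RefSeq symbol (assembly GRCm38.p6); Epb41 was named this way only. Probe sets whose mean reached the 40th percentile of named ones (log2 3.857) were tested, 14899 in all. Differences were fitted with limma 3.58.1 in R 4.3.3 (3 groups, 1 residual degree of freedom). In 3240 tested probe sets the IP values were tied (within 1e-09), so the prior spread came from untied ones (SD 0.111 with 3.12 degrees of freedom). With ties like these simulated (IP minus IgG, 14899 probe sets), this fit called 20 of 14699 unchanged ones and recovered 18, 48, 50 and 50 of 50 changed by 1.5-, 2-, 4- and 8-fold; ordinary eBayes called 1328 unchanged and recovered 15, 19, 26 and 23. Simulated control arrays had the IP spread. The simulation gave every probe set the same SD (0.153) and changed only 50 at each size, whereas 57.3% of tested probe sets were called against IgG. Its rates need not hold for the real data. A size rule, at least 2-fold in both IP replicates, needs no spread.

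The members, lists and tests were chosen with earlier results of these data known. Named genes are the members, the 2 highest and 2 lowest of each list per control, and the 3 nearest patterns of the highest and lowest member; other names were chosen after values were seen. The alternatives tried were a 60th percentile filter, no filter, quantile normalization again, ordinary eBayes, 1 common IP spread in each of 20 level bins, an adjusted p below 0.1, other fold thresholds and leaving out each IP replicate. Actg1, Hba-a1 and Serpina1a were listed but matched no probe set by symbol. Some genes of the lists are not reported here. Sequences of the mRNAs' 3′ ends were not used here.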

Additional observations from a re-analysis of the deposited data

How the results depend on the processing

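Both control groups are single arrays, so no difference has a replicate check on the control side, and the number of arrays limits the precision. No paired analysis was possible because the IgG and input arrays carry no replicate number. Leaving out either IP replicate leaves no residual degree of freedom, so it gave values only: no member changed the sign of a difference that passed, and the size counts stayed at 1 above and 0 below IgG and at 0 above and 2 below input. At 1.5-fold 1 member was above input, and at 4-fold 0 were below.

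Members higher against IgG, 2 as given, numbered 4 with ordinary eBayes and 4 with the common spread. Members lower against IgG, also 2, numbered 1 with no filter, 1 with ordinary eBayes and 4 with the common spread. Against input, 0 were higher with ordinary eBayes in place of 1, and 6 lower with the common spread in place of 3. The members gained with the common spread were Slc4a1 and Add1 (higher) and Epb41 and Mpp1 (lower) against IgG, and Sptb, Ank1 and Add2 (lower) against input; with ordinary eBayes they were Sptb and Add1 (higher than IgG) and Sptb and Ank1 (lower than input). After quantile normalization again Ank1 had 0.0876 in IgG minus input in place of -0.0348.

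Over all tested probe sets, 3260 fell against IgG, or 6290 with no filter and 1298 with the 60th percentile filter, and 2317 fell against input, or 1444 after quantile normalization again. Other skeleton genes higher against input numbered 0 with ordinary eBayes in place of 2. Those lower, 2 as given, numbered 1 with no filter, 1 after quantile normalization again and 4 with the common spread. Transmembrane genes higher against IgG, 5 as given, were 3 after quantile normalization again, and those lower were 2 with ordinary eBayes in place of 1. Against input, in place of 2 lower there were 5 with the 60th percentile filter, 4 with ordinary eBayes, 8 with the common spread and 5 at an adjusted p below 0.1. Paralogs lower against IgG, 2 as given, were 4 with no filter, 1 with the 60th percentile filter and 1 with ordinary eBayes, and 0 were higher against input with ordinary eBayes in place of 3. Except where an alternative changes the probe sets tested, the cause of these changes was not tested.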
